A study of Mus musculus with 8 samples.

Results

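The TNF superfamily genes other than RANKL and its receptors were described in RNA of the parietal bone, a flat bone of the skull vault, of C57BL/6J mouse pups. The members were the rows of the count table whose symbol starts with Tnfsf or Tnfrsf and a digit, without Tnfsf11, Tnfrsf11a and Tnfrsf11b, together with Tnf, Lta, Ltb, Ltbr, Fas, Fasl, Cd40, Cd40lg, Cd27, Cd70, Ngfr, Eda, Edar and Eda2r. The rule found 43 of the table's 27133 rows: 17 ligands, 25 receptors and 1 antisense RNA, Tnfsf13os, whose symbol meets the rule though it encodes no ligand. In 1 group, 4 libraries came from pups that received a CSF1R-blocking antibody, CSF1R being the growth factor receptor on which macrophages, monocytes and osteoclasts depend (anti-CSF1R libraries 7, 8, 9 and 10). In the other, 4 libraries came from pups given an isotype control antibody (isotype libraries 2, 3, 4 and 5). Both groups were dosed over the skull at postnatal days 2, 4 and 6. The pups, of the same strain and with no other allele named, were perfused and their bone was taken at postnatal day 9. Each library's title carries its own number after the letters ms, but no label states that separate pups stand behind the libraries. The p-values therefore reflect only how far these libraries spread.

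TNF superfamily ligands are trimers, made at the cell surface or shed from it, and each binds 1 or more receptors of the matching family. Receptors with a death domain in their tail can recruit adaptors that lead to caspase activation. Most of the others bind TRAF adaptors that lead to NF-kappaB and kinase signalling. Several members act between immune cells as costimulators, TNF itself promotes inflammation and osteoclast formation, and the ectodysplasin branch shapes skin appendages and teeth.

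Library totals lay between 57.5 M and 69.1 M counts, and levels are given as CPM, counts scaled to 1 M of a library's total after its TMM factor. The detection floor was set at 3 counts, or 0.0434 to 0.0522 per 1 M of a library's total before its TMM factor, and allows for counting error only. It takes counts as independent, while most small counts were even, as when both mates are counted, so it may be too low. Isotype libraries 3 and 4 stood apart: across 17028 genes their Spearman correlation with the other 6 libraries was 0.916 to 0.943, against 0.986 to 0.997 among those 6. Both lay outside the range of the other 6 libraries for 69.3% of all genes tested, so values without them (isotype 2 and 5 only) stand beside the results. The 8 osteoblast markers of the bone summed to 79751 to 98121 CPM with anti-CSF1R and 96356 to 159950 CPM with isotype. The highest isotype sums, 145877 and 159950 CPM, were those of isotype 3 and 4. Of these 8 markers 0 passed the test, 5 having a log2 fold change below 0 and 3 above it. The 10 macrophage markers summed to 231 to 288 CPM with anti-CSF1R and 562 to 1046 CPM with isotype, and 7 of them passed the test as lower. The 8 osteoclast markers summed to 2040 to 2784 CPM and 5557 to 13239 CPM in these groups, with 6 passing as lower. The 6 skeletal muscle markers summed to 3.93 to 5.18 CPM with anti-CSF1R and 7.53 to 51.4 CPM with isotype. The 6 endothelial markers summed to 536 to 617 CPM with anti-CSF1R and 427 to 480 CPM with isotype. Of these 6, 0 passed the test on all libraries, 5 having a log2 fold change above 0 and 1 below it. In bulk RNA, fewer cells of a type and less RNA per cell cannot be told apart, and the part of these shifts in the results below was not tested.

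No member passed the test over all genes when all 8 libraries were used. Of the 43 members, 35 passed the filter on low counts, and 0 of these 35 differed between anti-CSF1R and isotype (edgeR quasi-likelihood test, Benjamini-Hochberg adjusted p under 0.05), against 0.846% of the 17028 genes tested. At an unadjusted p under 0.05 there were 5 members, 3 lower and 2 higher with anti-CSF1R, against 17.9% of all genes. Among these 35, the values of the groups did not overlap for 6 members, 3 lower (Tnfrsf9, Tnfsf8 and Tnfrsf1b) and 3 higher (Tnfsf10, Tnfrsf18 and Tnfrsf22), against 15.0% of all genes, so that share was near the background. The median log2 fold change of the 35 was -0.18, against 0.03 over all genes tested, and with isotype 2 and 5 only it was 0.03 against 0.00. With isotype 2 and 5 only, 2 of 37 members tested passed, Tnfrsf9 and Tnfsf8, both lower, against 2.38% of all genes passing as lower. With an offset for GC content and transcript length the same 2 of 35 passed, both lower, against 2.18% of all genes passing as lower. DESeq2 called 3 lower, these 2 and Tnfrsf1b, against 3.69% of all genes passing as lower.

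**Figure D1:**
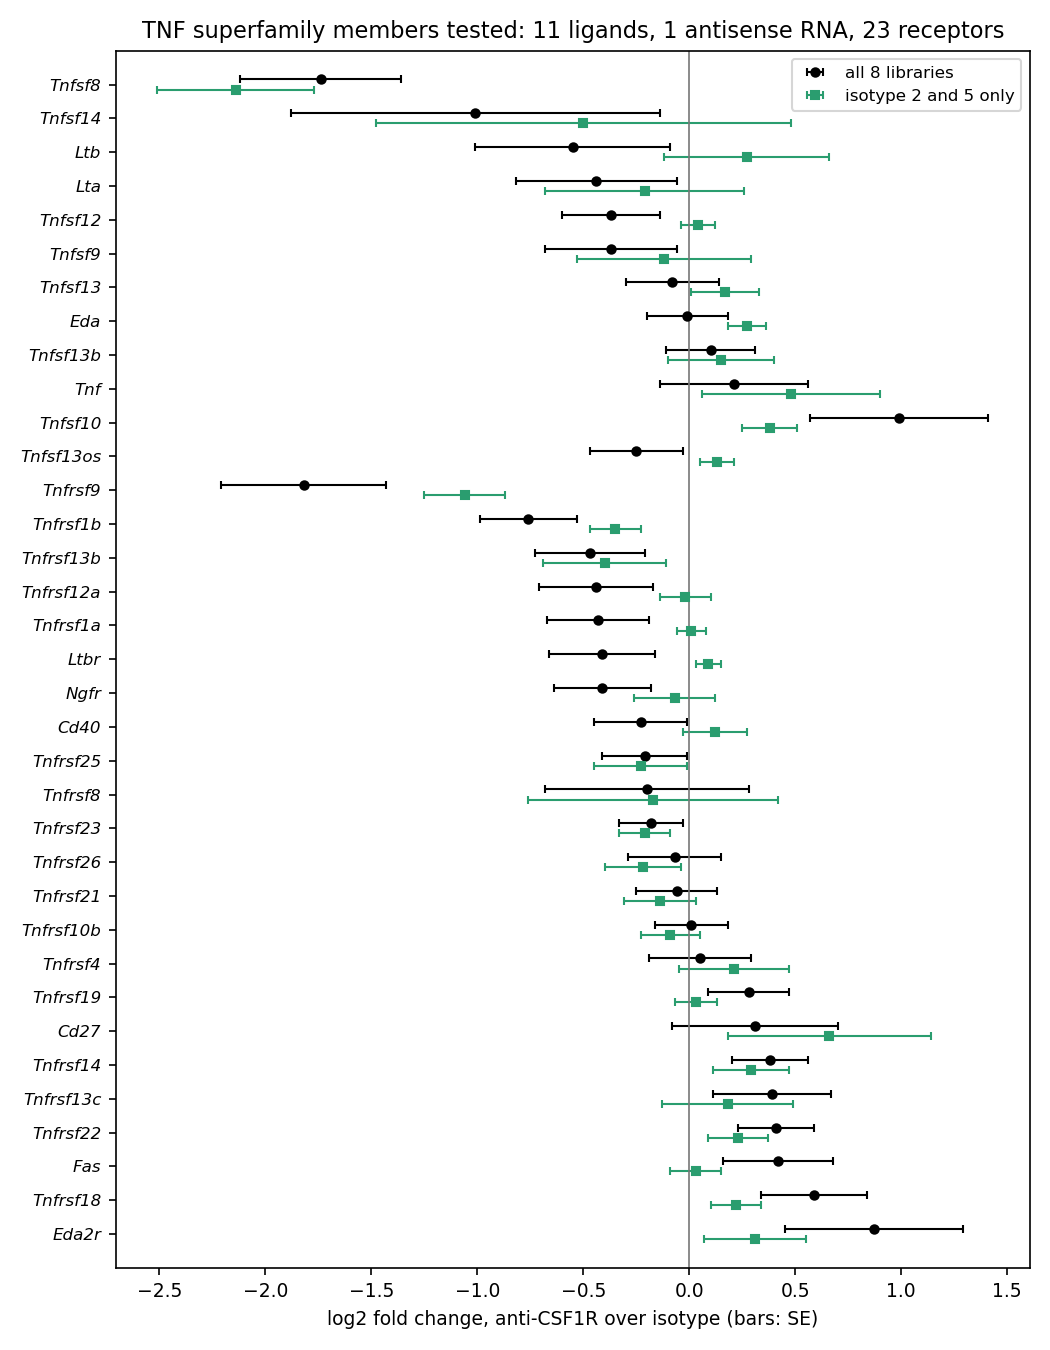
Log2 fold change of each of the 35 tested members (x axis, anti-CSF1R over isotype, bars are standard errors), with ligands at the top, then Tnfsf13os, then receptors. Black circles use all 8 libraries and green squares isotype 2 and 5 only. Tnfsf8 and Tnfrsf9 lie farthest to the left in both, at -1.74 and -1.82 with all libraries and -2.14 and -1.06 with isotype 2 and 5 only.

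Tnfrsf9 encodes 4-1BB (CD137), a costimulatory receptor known best from activated T and NK cells and also found on myeloid cells. It stood at 2.75, 2.01, 1.93 and 2.11 CPM in anti-CSF1R libraries 7 to 10, against 5.04, 14.5, 7.43 and 4.11 CPM in isotype libraries 2 to 5. Every anti-CSF1R library lay below every isotype library, and isotype 3 was the highest of the 8. The means were 2.20 ± 0.373 CPM with anti-CSF1R and 7.77 ± 4.69 CPM with isotype (SD, n = 4 each), 3.53-fold lower with anti-CSF1R. On all libraries the log2 fold change was -1.82 ± 0.39 (SE), and its edgeR adjusted p was 0.0764. Against isotype 2 and 5 alone, at -1.06 ± 0.19, it passed (edgeR adjusted p = 0.0165). It also passed after the GC and length offset, at -1.87 (edgeR adjusted p = 0.0356). It passed in 4 of 17 alternatives, in a range of adjusted p from 2.41e-04 to 0.264, and the size of the difference depended on isotype 3, without which it was -1.33. Its ligand gene Tnfsf9 (4-1BB ligand) was scarce, at 0.398 ± 0.135 CPM with anti-CSF1R and 0.519 ± 0.0972 CPM with isotype (SD, n = 4 each), with overlapping groups (log2 fold change -0.37 ± 0.31, edgeR adjusted p = 0.404).

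Tnfsf8, the gene of CD30 ligand, a surface ligand known from activated T cells, B cells and myeloid cells, was much scarcer. Its counts were 18, 24, 12 and 10 in anti-CSF1R libraries 7 to 10, against 74, 23, 36 and 60 in isotype libraries 2 to 5. Scaled to depth these were 0.255, 0.317, 0.173 and 0.165 CPM with anti-CSF1R and 1.18, 0.439, 0.594 and 0.848 CPM with isotype. The scaled values did not overlap, isotype 2 and 5 were the highest, and isotype 3 was the isotype library closest to the anti-CSF1R ones. The means, 0.228 ± 0.0721 CPM with anti-CSF1R and 0.766 ± 0.324 CPM with isotype (SD, n = 4 each), differed 3.37-fold. The log2 fold change was -1.74 ± 0.38 (edgeR adjusted p = 0.0849) on all libraries. Against isotype 2 and 5 alone it was -2.14 ± 0.37 (edgeR adjusted p = 0.0140), and after the offset it was -2.14 (edgeR adjusted p = 0.00639). Among 16 alternatives the adjusted p lay between 0.00108 and 0.280. Tnfrsf9 was highest in the isotype libraries that stand apart and Tnfsf8 in the other isotype pair, yet both were lower with anti-CSF1R in the fits with isotype 2 and 5 only. The receptor gene Tnfrsf8 (CD30) stood at 0.0865 to 0.409 CPM with anti-CSF1R and 0.191 to 0.396 CPM with isotype, overlapping (log2 fold change -0.20 ± 0.48, edgeR adjusted p = 0.776). The 10 T and NK cell markers summed to 3.20 to 4.94 CPM with anti-CSF1R and 3.24 to 5.16 CPM with isotype, with 0 at 0 in every library and 8 under 1 CPM in every library (Cd3d, Cd3e, Cd3g, Cd2, Trbc2, Nkg7, Ncr1 and Klrb1c). The 6 dendritic cell markers summed to 4.51 to 7.10 CPM with anti-CSF1R and 7.05 to 11.1 CPM with isotype. Of these 6, 3 had a log2 fold change below 0 and 3 above it, with 1 passing as lower in edgeR. The part of these markers in either difference was not tested.

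The promoter windows of Tnfrsf9 and Tnfsf8 are shown because these 2 members passed in more than 1 alternative, each time as lower. The sequences are RefSeq's for GRCm38.p6, from 250 bases before to 50 bases after an annotated start, read 5′ to 3′ on the gene's strand, and Tnfrsf9 has 2 such starts. Capitals mark matches to the AP-1 motif TGANTCA, to the NF-kappaB consensus and to the PU.1 core GAGGAAGT, searched on both strands. The windows lie at chr4:150919905-150920204 (plus strand, upstream start of Tnfrsf9), chr4:150927749-150928048 (plus strand, downstream start of Tnfrsf9) and chr4:63861235-63861534 (minus strand, Tnfsf8).
Tnfrsf9 upstream start: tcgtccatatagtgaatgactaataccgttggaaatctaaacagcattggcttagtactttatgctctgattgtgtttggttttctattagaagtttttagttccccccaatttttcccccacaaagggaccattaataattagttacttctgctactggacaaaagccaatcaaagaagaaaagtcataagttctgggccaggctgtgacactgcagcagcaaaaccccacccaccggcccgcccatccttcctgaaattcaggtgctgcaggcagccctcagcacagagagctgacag
Tnfrsf9 downstream start: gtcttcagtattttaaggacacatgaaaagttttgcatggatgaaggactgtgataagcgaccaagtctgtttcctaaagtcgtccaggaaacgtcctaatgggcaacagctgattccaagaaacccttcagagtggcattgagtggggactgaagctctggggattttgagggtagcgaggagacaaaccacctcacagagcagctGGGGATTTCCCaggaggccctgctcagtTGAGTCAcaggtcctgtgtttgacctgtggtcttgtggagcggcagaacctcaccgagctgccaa
Tnfsf8: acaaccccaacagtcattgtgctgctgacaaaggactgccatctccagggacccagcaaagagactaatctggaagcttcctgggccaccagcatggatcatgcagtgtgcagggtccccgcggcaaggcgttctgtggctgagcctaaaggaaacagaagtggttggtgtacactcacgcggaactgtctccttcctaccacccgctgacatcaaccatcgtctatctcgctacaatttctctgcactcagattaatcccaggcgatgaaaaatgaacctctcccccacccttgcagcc
The downstream Tnfrsf9 window held an NF-kappaB match in 2 overlapping frames, beginning 43 and 42 bases before the start, and an AP-1 match beginning 15 bases before it. Among all 32851 promoter windows, 4.51% held an NF-kappaB match, 7.81% an AP-1 match and 3.20% a PU.1 core match. The upstream Tnfrsf9 window and that of Tnfsf8 held none of the 3, which says only that these letters are not there. The short NFAT core GGAAA, left in lower case, was in each of the 3 windows and in 61.3% of all windows, and in the downstream Tnfrsf9 window 1 of its 3 matches lay within the NF-kappaB match. Of the 6 tested members whose groups did not overlap, 5 had promoter entries, 6 windows in all, and the downstream start of Tnfrsf9 was the 1 of 6 with an AP-1 or an NF-kappaB match. A match is a description of the sequence and not evidence of binding, and the counts do not tell which start was used.

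**Figure D2:**
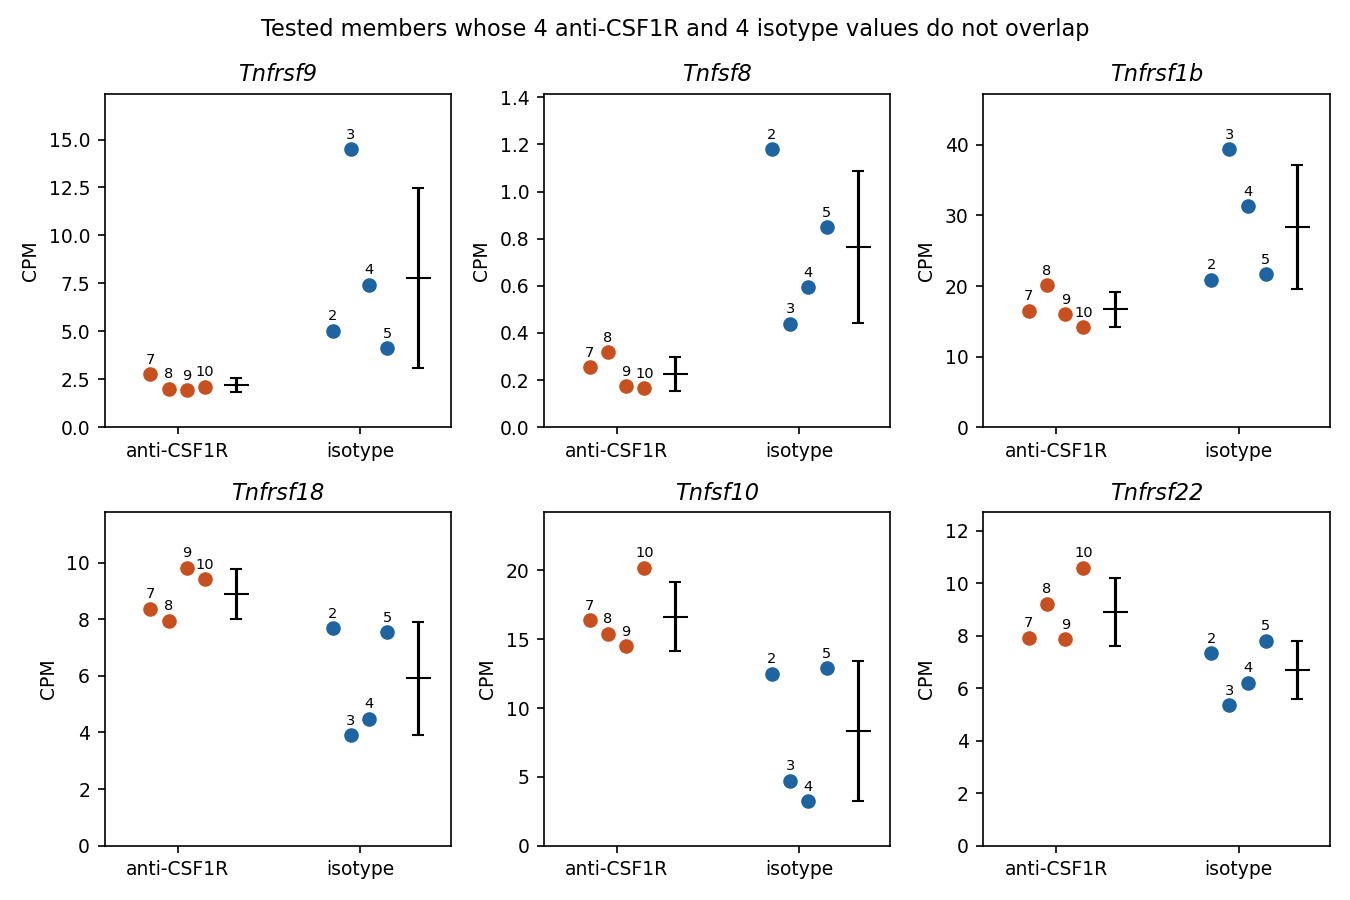
CPM per library (y axis, from 0) of the 6 tested members whose groups do not overlap, anti-CSF1R in orange and isotype in blue, with library numbers and the mean ± SD beside each group. Tnfrsf9, Tnfsf8 and Tnfrsf1b lie lower with anti-CSF1R, and for Tnfrsf18, Tnfsf10 and Tnfrsf22 isotype libraries 3 and 4 lie lowest while isotype 2 and 5 lie just under the anti-CSF1R values.

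Both receptor genes of TNF itself were highest in isotype 3, then in isotype 4, and neither passed in edgeR on all libraries. A difference between the 2 genes was not tested. Tnfrsf1b, the gene of TNFR2, a TRAF-binding receptor found mostly on immune and endothelial cells, stood at 16.5, 20.1, 16.0 and 14.2 CPM in anti-CSF1R libraries 7 to 10, against 20.9, 39.4, 31.3 and 21.7 CPM in isotype libraries 2 to 5. The groups did not overlap, though anti-CSF1R 8 and isotype 2 were close. The means were 16.7 ± 2.45 CPM with anti-CSF1R and 28.3 ± 8.75 CPM with isotype (SD, n = 4 each), and the log2 fold change, -0.76 ± 0.23, did not pass (edgeR adjusted p = 0.212). Without isotype 3 and 4 it was -0.35 (edgeR adjusted p = 0.193), while DESeq2 on all libraries gave -0.80 (adjusted p = 0.0494), the 1 of 17 alternatives in which it passed. With the GC and length offset it was -0.54 (edgeR adjusted p = 0.0957).

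Tnfrsf1a, the gene of TNFR1, the widely expressed death domain receptor of TNF, stood at 106, 99.8, 98.9 and 109 CPM in anti-CSF1R libraries 7 to 10, against 99.0, 212, 140 and 106 CPM in isotype libraries 2 to 5. Isotype 3 and 4 alone lay above the rest, and isotype 2 and 5 lay within the anti-CSF1R range. The log2 fold change of -0.43 ± 0.24 on all libraries (edgeR adjusted p = 0.298) was 0.01 ± 0.07 with isotype 2 and 5 only (edgeR adjusted p = 0.962). Tnf was scarce, with 32, 32, 38 and 16 counts in anti-CSF1R libraries 7 to 10, against 22, 30, 18 and 18 counts in isotype libraries 2 to 5. In CPM these were 0.453, 0.423, 0.548 and 0.264 with anti-CSF1R and 0.351, 0.573, 0.297 and 0.254 with isotype, fully overlapping (log2 fold change 0.21 ± 0.35, edgeR adjusted p = 0.672).

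Lymphotoxin genes and their receptors likewise overlapped. Ltbr, the gene of the lymphotoxin beta receptor of stromal and myeloid cells, stood at 62.7, 63.7, 62.4 and 67.7 CPM in anti-CSF1R libraries 7 to 10, against 58.3, 132, 89.9 and 61.7 CPM in isotype libraries 2 to 5. As with Tnfrsf1a, from which a single coding gene separates it in RefSeq's gene order, only isotype 3 and 4 lay above the anti-CSF1R range. The log2 fold change was -0.41 ± 0.25 on all libraries (edgeR adjusted p = 0.312) and, without isotype 3 and 4, 0.09 ± 0.06 (edgeR adjusted p = 0.544). Its ligand genes Ltb and Lta, which lie beside Tnf, were scarce. Ltb averaged 0.948 CPM (0.627 to 1.56) with anti-CSF1R and 1.39 CPM (0.638 to 2.52) with isotype, and Lta averaged 0.222 ± 0.0724 CPM with anti-CSF1R and 0.299 ± 0.112 CPM with isotype (SD, n = 4 each). Tnfsf14 (LIGHT), which binds both the lymphotoxin beta receptor and HVEM, had 10, 36, 6 and 0 counts in anti-CSF1R libraries 7 to 10, against 18, 42, 10 and 16 counts in isotype libraries 2 to 5. None of these 3 ligand genes passed (edgeR adjusted p = 0.400, 0.413 and 0.413 for Ltb, Lta and Tnfsf14). Tnfrsf14, the gene of HVEM, stood at 22.8, 30.6, 20.7 and 20.2 CPM in anti-CSF1R libraries 7 to 10, against 17.9, 15.1, 19.0 and 20.7 CPM in isotype libraries 2 to 5. Anti-CSF1R 8 was the highest, isotype 5 reached into the anti-CSF1R range, and the log2 fold change was 0.38 ± 0.18 (edgeR adjusted p = 0.281).

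The TRAIL branch held 2 of the 3 members that were higher with anti-CSF1R without overlap. Tnfsf10, the gene of TRAIL, a ligand that can trigger apoptosis, stood at 16.4, 15.4, 14.5 and 20.2 CPM in anti-CSF1R libraries 7 to 10, against 12.5, 4.73, 3.24 and 12.9 CPM in isotype libraries 2 to 5. The isotype libraries fell into a low pair, 3 and 4, and a pair just below the anti-CSF1R values. Means of 16.6 ± 2.49 CPM with anti-CSF1R and 8.35 ± 5.08 CPM with isotype (SD, n = 4 each) differed by a log2 value of 0.99 ± 0.42 (edgeR adjusted p = 0.278), reduced without isotype 3 and 4 to 0.38 ± 0.13 (edgeR adjusted p = 0.168). With the GC and length offset this value was 0.63 ± 0.19 (edgeR adjusted p = 0.121). Tnfrsf10b, the gene of DR5, the death domain receptor of TRAIL in the mouse, averaged 9.06 CPM (8.13 to 9.78) with anti-CSF1R and 9.02 CPM (7.76 to 11.2) with isotype (log2 fold change 0.01 ± 0.17, edgeR adjusted p = 0.982).

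Tnfrsf22 and Tnfrsf23, decoy receptors of TRAIL in the mouse that lack a death domain, lie side by side with Tnfrsf26, and reads of such close paralogs may be shared between them in counting. Tnfrsf22 stood at 7.92, 9.22, 7.86 and 10.6 CPM in anti-CSF1R libraries 7 to 10, against 7.34, 5.36, 6.22 and 7.82 CPM in isotype libraries 2 to 5. The gap between anti-CSF1R 9 and isotype 5 was very small, and the log2 fold change was 0.41 ± 0.18 (edgeR adjusted p = 0.278). Tnfrsf23 stood at 21.0, 18.2, 16.9 and 20.4 CPM in anti-CSF1R libraries 7 to 10, against 24.7, 19.1, 23.4 and 19.4 CPM in isotype libraries 2 to 5. It overlapped between the groups, where the log2 fold change was -0.18 ± 0.15 (edgeR adjusted p = 0.403), opposite in sign to that of its neighbour. Tnfrsf26 averaged 3.81 ± 0.690 CPM with anti-CSF1R and 4.00 ± 0.844 CPM with isotype (SD, n = 4 each; log2 fold change -0.07 ± 0.22, edgeR adjusted p = 0.825).

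Among the costimulatory receptors, Tnfrsf18, the gene of GITR, a receptor known from regulatory T cells, stood at 8.37, 7.94, 9.82 and 9.41 CPM in anti-CSF1R libraries 7 to 10, against 7.69, 3.91, 4.49 and 7.53 CPM in isotype libraries 2 to 5. Isotype 2 and 5 lay just under the anti-CSF1R range and isotype 3 and 4 well below it. The log2 fold change was 0.59 ± 0.25 on all libraries (edgeR adjusted p = 0.278) and, without isotype 3 and 4, 0.22 ± 0.12 (edgeR adjusted p = 0.440). With the GC and length offset it was 0.87 ± 0.37 (edgeR adjusted p = 0.198). The endothelial marker sum, given above, also did not overlap between the groups and was also higher with anti-CSF1R, though 0 of its 6 markers passed on all libraries. The part of this sum in the values of Tnfsf10, Tnfrsf18 and Tnfrsf22 was not tested. Tnfrsf4 (OX40), the neighbour of Tnfrsf18, averaged 1.69 ± 0.184 CPM with anti-CSF1R and 1.63 ± 0.417 CPM with isotype (log2 fold change 0.05 ± 0.24, edgeR adjusted p = 0.877). Cd40, the gene of the receptor for T cell help on B cells and macrophages, averaged 5.95 ± 0.498 CPM with anti-CSF1R and 6.97 ± 1.95 CPM with isotype (log2 fold change -0.23 ± 0.22, edgeR adjusted p = 0.459). Cd27, a receptor of T cells and B cells, averaged 0.334 ± 0.114 CPM with anti-CSF1R and 0.270 ± 0.107 CPM with isotype (log2 fold change 0.31 ± 0.39, edgeR adjusted p = 0.574; SD and n = 4 each throughout). Tnfrsf4, Cd40 and Cd27 each overlapped between the groups.

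Ligands of these receptors were at or near the floor. Cd70, the ligand gene of CD27, had 0 counts in all 8 libraries. Fasl, the gene of Fas ligand, had 6 counts in anti-CSF1R 8 and 0 in the other 7 libraries, and Cd40lg, the gene of CD40 ligand, had 6 in anti-CSF1R 8, 4 in isotype 2 and 0 in the rest. Tnfsf4 (OX40 ligand) had 2, 0, 4 and 6 counts in anti-CSF1R libraries 7 to 10, against 4, 2, 4 and 6 in isotype libraries 2 to 5. Tnfsf18 (GITR ligand) had 2, 0, 6 and 0 counts in anti-CSF1R libraries 7 to 10, against 12, 0, 0 and 0 in isotype libraries 2 to 5. At this depth a difference between the groups in these 5 genes was not detectable. Tnfsf15, the gene of TL1A and the neighbour of Tnfsf8, had 0, 2, 0 and 2 counts in anti-CSF1R libraries 7 to 10, against 12, 2, 6 and 16 in isotype libraries 2 to 5. Isotype 2 and 5 were the highest, as for Tnfsf8, and isotype 3 had the same count as 2 of the anti-CSF1R libraries. Scaled to depth the groups did not overlap, at 0 to 0.0330 CPM with anti-CSF1R and 0.0382 to 0.226 CPM with isotype, values that reach below the floor in both groups. It failed the filter with all libraries and did not pass in either of the 2 alternatives that tested it (edgeR adjusted p = 0.0542 with isotype 2 and 5 only and 0.245 in the other). In the fit with isotype 2 and 5 only, Tnfsf15 came through the filter by those 2 libraries, where it was highest. Its adjusted p in that fit is therefore no support for a difference. Its receptor gene Tnfrsf25 (DR3) averaged 3.07 ± 0.557 CPM with anti-CSF1R and 3.56 ± 0.542 CPM with isotype (SD, n = 4 each; log2 fold change -0.21 ± 0.20, edgeR adjusted p = 0.447). Tnfrsf17 and Edar also failed the filter, so that 8 members were not tested, the highest count among them in any library being 28 (Edar in isotype 5).

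**Figure D3:**
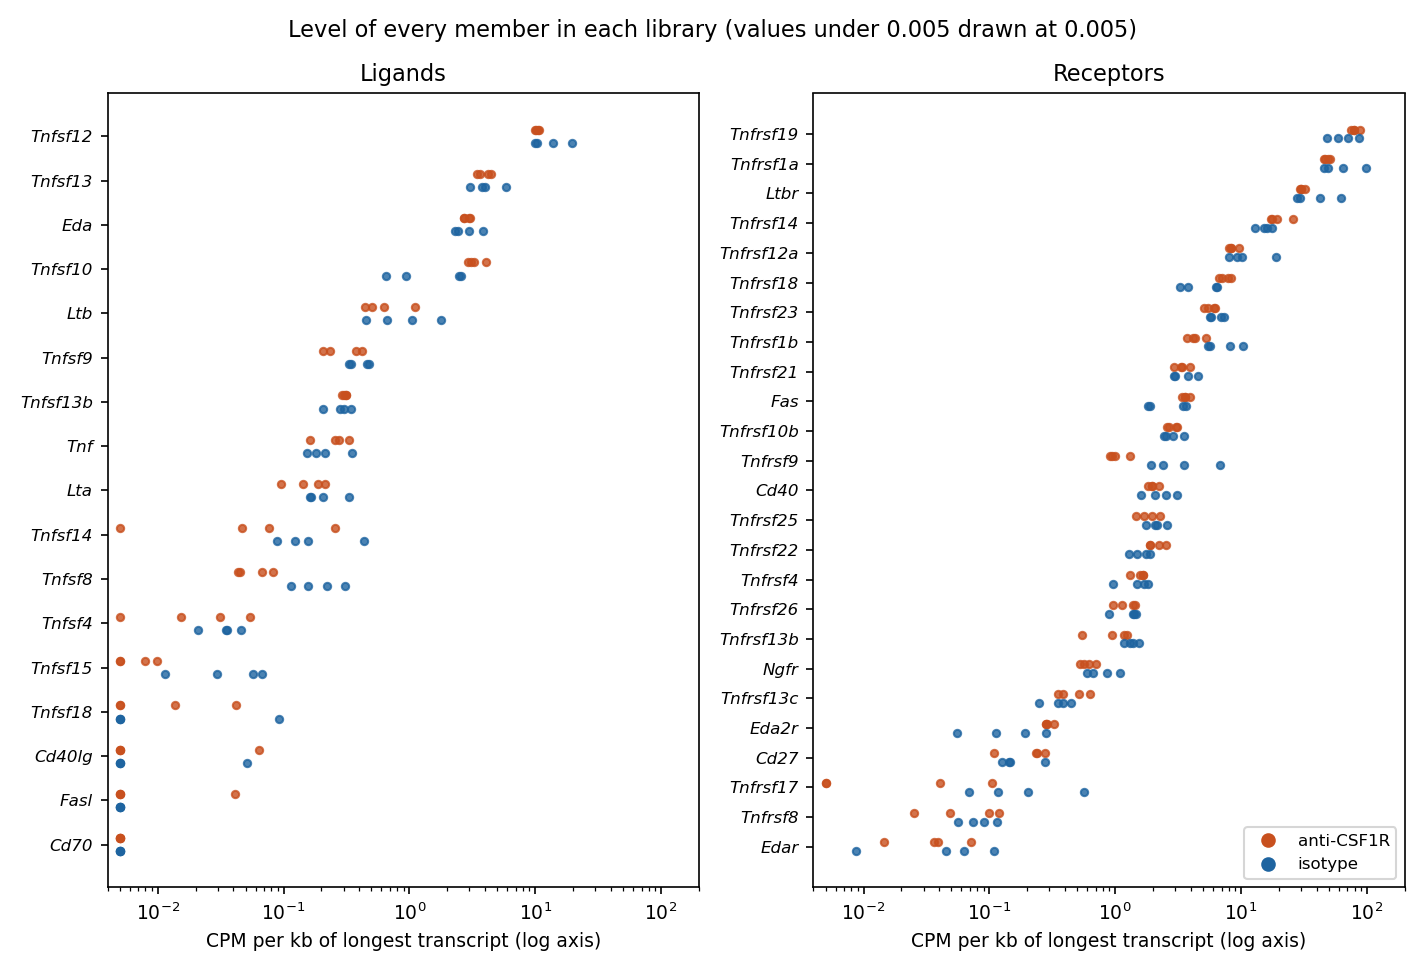
Level of every ligand and receptor in each library, in CPM per kb of the longest transcript (log x axis, values under 0.005 drawn at 0.005), ordered by the mean of the 8 libraries, anti-CSF1R in orange above isotype in blue. Tnfsf12 heads the ligands at 9.88 to 19.7 CPM per kb, and Tnfrsf19 and Tnfrsf1a head the receptors at 48.1 to 88.9 and 45.9 to 98.2 CPM per kb.

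Levels between genes were compared per kb of the longest GENCODE M21 transcript, which need not be the form made in bone. The receptors were led by Tnfrsf19, Tnfrsf1a and Ltbr, at 80.5, 48.0 and 30.4 CPM per kb with anti-CSF1R and 66.2, 64.5 and 40.6 CPM per kb with isotype. With anti-CSF1R these 3 did not overlap, while with isotype all 3 ranges overlapped (48.1 to 86.7, 45.9 to 98.2 and 27.7 to 62.6 CPM per kb). Tnfrsf14 came next at 20.1 CPM per kb with anti-CSF1R and 15.5 with isotype, and Tnfrsf12a overlapped it with isotype, at 7.98 to 19.1 CPM per kb. Ligands stood lower. Tnfsf12 led at 10.3 CPM per kb with anti-CSF1R and 13.4 with isotype, followed by Tnfsf13, Tnfsf10 and Eda between 1.67 and 4.16 CPM per kb in group means. With anti-CSF1R the range of Tnfsf10 overlapped those of Tnfsf13 and Eda, which did not overlap each other. The other 13 ligands had group means under 1 CPM per kb.

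Tnfrsf19, the gene of TROY, a receptor of mesenchymal and neural progenitors with no death domain, stood at 305, 321, 319 and 360 CPM in anti-CSF1R libraries 7 to 10, against 351, 195, 239 and 288 CPM in isotype libraries 2 to 5. Isotype 3 and 4 were the lowest and isotype 2 exceeded 3 of the 4 anti-CSF1R libraries. The log2 fold change was 0.28 ± 0.19 on all libraries (edgeR adjusted p = 0.338) and, without isotype 3 and 4, 0.03 ± 0.10 (edgeR adjusted p = 0.941). Tnfrsf21, the gene of the death domain receptor DR6, stood at 12.2, 12.4, 14.3 and 10.7 CPM in anti-CSF1R libraries 7 to 10, against 10.7, 10.8, 13.7 and 16.4 CPM in isotype libraries 2 to 5, overlapping throughout (log2 fold change -0.06 ± 0.19, edgeR adjusted p = 0.822). Ngfr, the gene of the p75 neurotrophin receptor of Schwann cells and mesenchyme, averaged 2.08 ± 0.264 CPM with anti-CSF1R and 2.77 ± 0.750 CPM with isotype (SD, n = 4 each; log2 fold change -0.41 ± 0.23, edgeR adjusted p = 0.299). The 5 Schwann cell markers summed to 23.1 to 32.4 CPM with anti-CSF1R and 25.7 to 38.8 CPM with isotype. Fas, the death receptor of Fas ligand, averaged 5.90 CPM (5.51 to 6.40) with anti-CSF1R and 4.40 CPM (2.97 to 5.94) with isotype. Its values in isotype 3 and 4, 3.05 and 2.97 CPM, were the lowest, and the log2 fold change of 0.42 ± 0.26 (edgeR adjusted p = 0.312) was 0.03 with isotype 2 and 5 only.

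The TWEAK pair followed isotype 3 and 4 as well. Tnfsf12, the gene of TWEAK, a ligand made by many cell types, stood at 15.2, 15.3, 14.2 and 14.6 CPM in anti-CSF1R libraries 7 to 10, against 14.7, 28.3, 19.7 and 14.2 CPM in isotype libraries 2 to 5. Tnfrsf12a, the gene of its receptor Fn14, stood at 8.15, 7.84, 8.21 and 9.46 CPM in anti-CSF1R libraries 7 to 10, against 7.85, 18.7, 9.94 and 9.13 CPM in isotype libraries 2 to 5. In both genes isotype 3 was the highest library, isotype 4 the next, and isotype 2 and 5 lay within or near the anti-CSF1R range. Log2 fold changes were -0.37 ± 0.23 for Tnfsf12 and -0.44 ± 0.27 for Tnfrsf12a on all libraries (edgeR adjusted p = 0.310 and 0.313). Without isotype 3 and 4 they were 0.04 ± 0.08 and -0.02 ± 0.12 (edgeR adjusted p = 0.883 and 0.970). The antisense Tnfsf13os overlaps both Tnfsf12 and Tnfsf13 in RefSeq. The strand setting of the counting was not given in the sources used here, and reads of the 3 genes may not be told apart. Tnfsf13os averaged 17.0 ± 0.705 CPM with anti-CSF1R and 20.2 ± 6.50 CPM with isotype (SD, n = 4 each; log2 fold change -0.25 ± 0.22, edgeR adjusted p = 0.417).

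The B cell survival branch showed no difference that passed. Tnfsf13b, the gene of BAFF, which keeps mature B cells alive, stood at 1.50, 1.45, 1.50 and 1.39 CPM in anti-CSF1R libraries 7 to 10, against 1.64, 1.45, 1.35 and 0.990 CPM in isotype libraries 2 to 5 (log2 fold change 0.10 ± 0.21, edgeR adjusted p = 0.723). Tnfsf13, the gene of APRIL, which supports plasma cells, stood at 5.20, 6.33, 5.47 and 6.67 CPM in anti-CSF1R libraries 7 to 10, against 5.95, 8.80, 5.68 and 4.55 CPM in isotype libraries 2 to 5 (log2 fold change -0.08 ± 0.22, edgeR adjusted p = 0.809). The groups overlapped in both ligand genes. Among their receptors, Tnfrsf13b (TACI) averaged 2.50 ± 0.817 CPM with anti-CSF1R and 3.48 ± 0.389 CPM with isotype (SD, n = 4 each; log2 fold change -0.47 ± 0.26, edgeR adjusted p = 0.298), and anti-CSF1R 10 had its lowest value, 1.39 CPM. Tnfrsf13c, the gene of the BAFF receptor of B cells, averaged 0.929 ± 0.250 CPM with anti-CSF1R and 0.708 ± 0.160 CPM with isotype (SD, n = 4 each; log2 fold change 0.39 ± 0.28, edgeR adjusted p = 0.350). Tnfrsf17 (BCMA, a plasma cell receptor) had 6, 0, 0 and 2 counts in anti-CSF1R libraries 7 to 10, against 6, 24, 10 and 4 in isotype libraries 2 to 5. The 8 B cell markers summed to 107 to 147 CPM with anti-CSF1R and 103 to 140 CPM with isotype, with 0 of 8 past the threshold in edgeR.

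In the ectodysplasin branch, Eda, the gene of the ligand of skin appendage and tooth formation, stood at 15.5, 15.2, 13.8 and 14.0 CPM in anti-CSF1R libraries 7 to 10, against 12.4, 19.8, 15.1 and 11.8 CPM in isotype libraries 2 to 5. Isotype values lay on both sides of the anti-CSF1R range, and the log2 fold change was -0.01 ± 0.19 (edgeR adjusted p = 0.964). Its receptor gene Edar had 10, 4, 18 and 8 counts in anti-CSF1R libraries 7 to 10, against 2, 12, 10 and 28 in isotype libraries 2 to 5. The 5 keratinocyte markers summed to 3.23 to 3.62 CPM with anti-CSF1R and 2.86 to 3.40 CPM with isotype. Eda2r, the gene of the receptor for the other ectodysplasin isoform, averaged 1.40 ± 0.104 CPM with anti-CSF1R and 0.761 ± 0.467 CPM with isotype (SD, n = 4 each). Isotype 2, at 1.34 CPM, reached the anti-CSF1R range of 1.33 to 1.55 CPM, and the log2 fold change of 0.87 ± 0.42 (edgeR adjusted p = 0.281) was 0.31 with isotype 2 and 5 only.

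Both isotype 3 and isotype 4 lay outside the range of the other 6 libraries in 16 of the 35 tested members, 45.7%, against 69.3% of all genes tested. They lay above it in 10 members, among them Tnfrsf9, Tnfrsf1b, Tnfrsf1a, Ltbr, Tnfsf12 and Tnfrsf12a, whose longest transcripts had a median GC content of 54.8% (47.8% to 60.4%). They lay below it in 6, Tnfsf10, Tnfrsf18, Tnfrsf22, Tnfrsf19, Fas and Eda2r, with a median of 46.2% (40.9% to 55.7%). With isotype 2 and 5 only, 26 of 37 members had a log2 fold change within 0.3 of 0, against 14 of 35 on all libraries. Over all genes these shares were 13627 of 17538 and 6536 of 17028. None of the shares, that of members outside the range of the other 6 libraries included, was matched for level. Members under about 1 CPM rest on few counts, where libraries are harder to set apart.

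**Figure D4:**
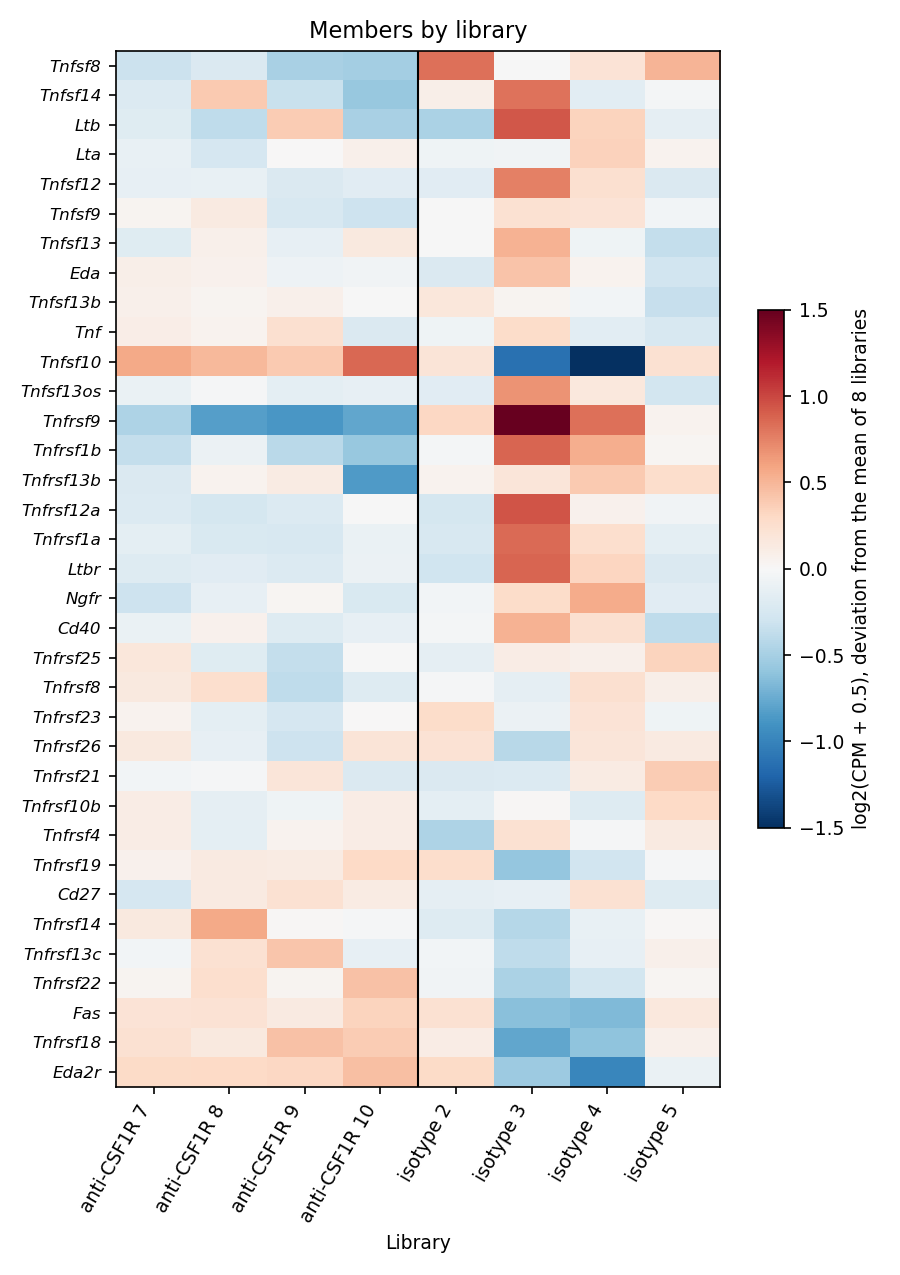
Deviation of log2(CPM + 0.5) from the mean of the 8 libraries for the 35 tested members (rows, as in the plot of fold changes) in each library (columns, anti-CSF1R left of isotype). Red is above and blue below the mean, drawn to limits of 1.5. Isotype 3 and 4 carry the strongest colours, as in Tnfsf10 at 4.73 and 3.24 CPM, and Tnfsf8 is pale there and red in isotype 2.

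Of 46 genes that carry the signal of these receptors, 0 passed over all genes in edgeR on all libraries. At an unadjusted p under 0.05 there were 10, each lower with anti-CSF1R. Of the 17028 genes tested, 2145 were lower and 896 higher at that p, 17.9% in either direction. DESeq2 called 2 lower (Traf1 and Nfkbia), against 3.69% of all genes passing as lower. The median log2 fold change of the 46 was -0.05, against 0.03 over all genes tested. The groups did not overlap for 7 that were lower and 2 that were higher, against 8.34% and 6.61% of all genes. In 41 of the 46, 89.1%, isotype 3 and 4 both lay outside the range of the other 6 libraries, against 69.3% of all genes tested. These shares were likewise not matched for level.

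The lower ones included 3 of the 8 NF-kappaB subunits and inhibitors, Nfkbia, Nfkb2 and Nfkbie. The rest of the 8, Nfkb1, Rel, Rela, Relb and Nfkbib, overlapped between the groups. Their log2 fold changes on all libraries were 0.05, 0.27, -0.38, -0.23 and -0.47. Nfkbia, the gene of IkappaB-alpha, which holds NF-kappaB in the cytoplasm, stood at 42.3, 40.8, 44.7 and 41.2 CPM in anti-CSF1R libraries 7 to 10, against 50.9, 99.0, 84.7 and 56.8 CPM in isotype libraries 2 to 5. Nfkb2, the gene of the p100 precursor of the noncanonical pathway, stood at 33.0, 34.2, 32.1 and 32.8 CPM in anti-CSF1R libraries 7 to 10, against 39.9, 71.8, 54.7 and 40.1 CPM in isotype libraries 2 to 5. In both genes the anti-CSF1R libraries lay close together below all isotype libraries, of which isotype 3 was the highest. On all libraries the log2 fold changes were -0.79 ± 0.22 for Nfkbia and -0.64 ± 0.20 for Nfkb2 (edgeR adjusted p = 0.177 and 0.238). Against isotype 2 and 5 alone these 2 passed, at -0.35 and -0.28 (edgeR adjusted p = 0.0218 and 0.0310), against 2.38% of all genes passing as lower. After the offset neither passed, at -0.42 and -0.35 (edgeR adjusted p = 0.0691 and 0.101). Among 17 alternatives the adjusted p lay from 0.0218 to 0.446 for Nfkbia and from 0.0310 to 0.478 for Nfkb2. Nfkbie, the gene of IkappaB-epsilon, averaged 7.90 ± 0.431 CPM with anti-CSF1R and 13.2 ± 4.86 CPM with isotype (SD, n = 4 each; edgeR adjusted p = 0.256).

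Traf1, the gene of a TRAF adaptor that binds TNFR2 and 4-1BB, stood at 7.03, 7.37, 6.29 and 4.75 CPM in anti-CSF1R libraries 7 to 10, against 8.28, 17.0, 11.9 and 11.0 CPM in isotype libraries 2 to 5. The groups did not overlap, and anti-CSF1R 10 was the lowest. The log2 fold change was -0.92 ± 0.24 on all libraries (edgeR adjusted p = 0.156). It was -0.60 without isotype 3 and 4 (edgeR adjusted p = 0.134), and after the offset it was -0.67 (edgeR adjusted p = 0.0653). Traf2, the adaptor shared by most TRAF-binding receptors, averaged 16.4 ± 0.677 CPM with anti-CSF1R and 24.3 ± 7.50 CPM with isotype (SD, n = 4 each; edgeR adjusted p = 0.278). Fadd, the adaptor of Fas and DR5, averaged 9.44 ± 0.398 CPM with anti-CSF1R and 14.2 ± 4.65 CPM with isotype (SD, n = 4 each; edgeR adjusted p = 0.278). Traf2 and Fadd had log2 fold changes of -0.18 and -0.15 with isotype 2 and 5 only, and of -0.50 and -0.49 after the offset. Birc2 and Adam10, an inhibitor of apoptosis and a sheddase, were the 2 that were higher without overlap, differing by log2 values of 0.57 and 0.72 (edgeR adjusted p = 0.298 and 0.295), and by 0.07 and 0.14 with isotype 2 and 5 only. After the offset these 2 differed by 0.28 and 0.35.

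**Figure D5:**
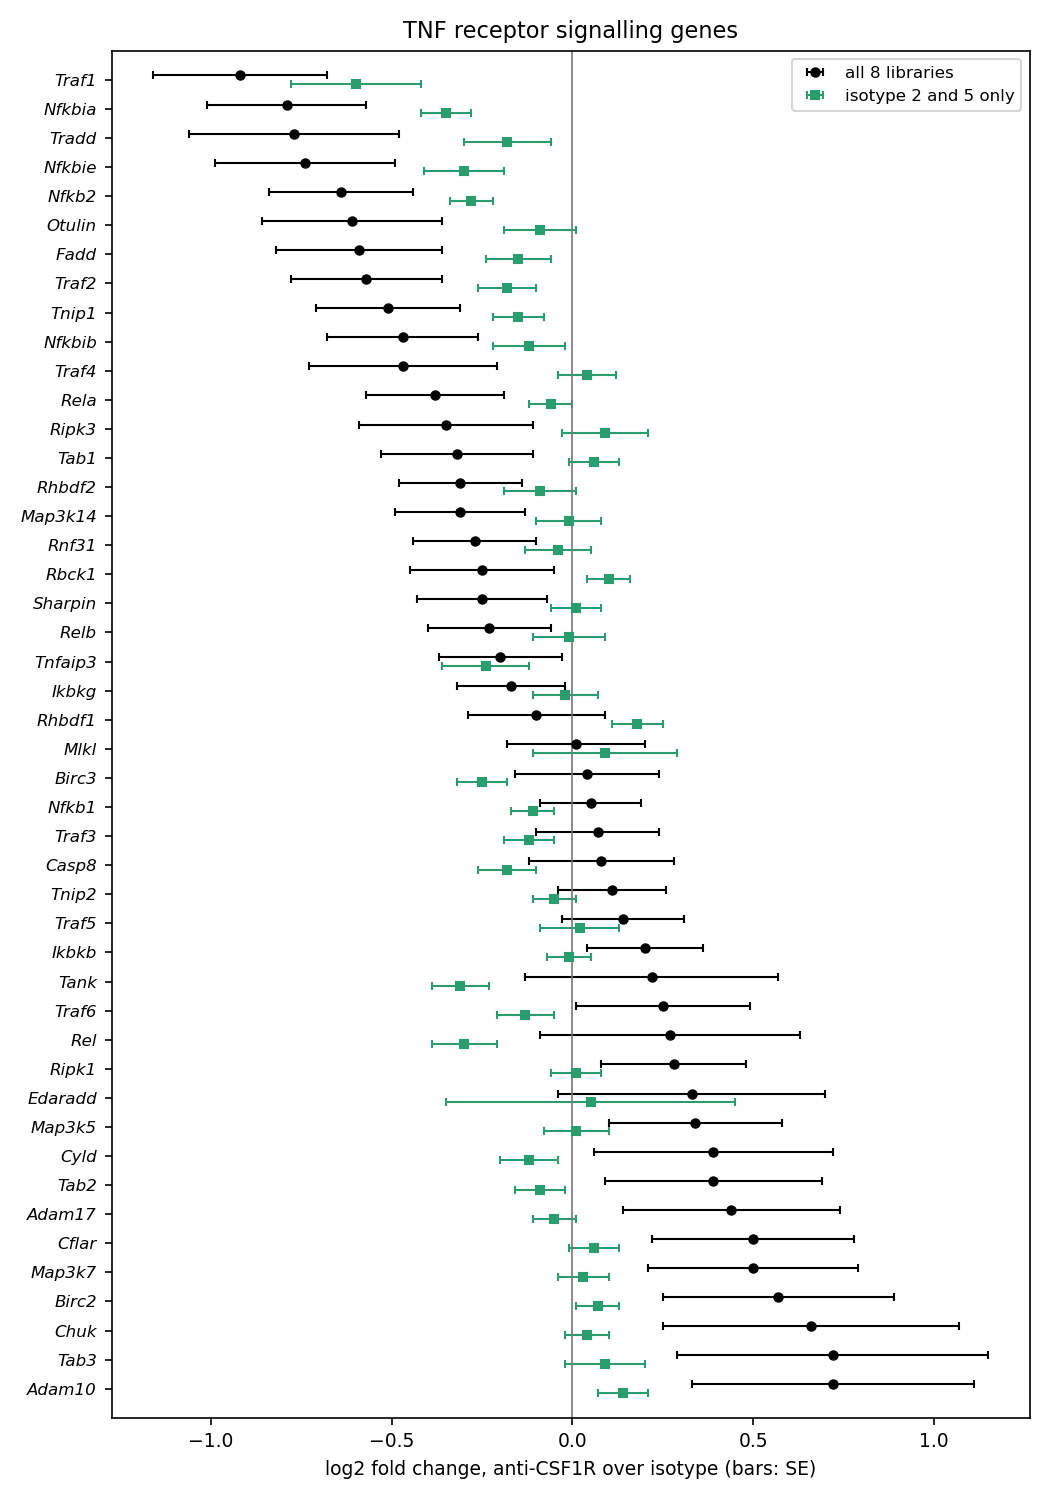
Log2 fold change of 46 TNF receptor signalling genes (x axis, anti-CSF1R over isotype, bars are standard errors), ordered by the value on all 8 libraries (black circles), with isotype 2 and 5 only as green squares. With isotype 2 and 5 only 42 of the 46 lie within 0.3 of 0, and Traf1 and Nfkbia, at -0.60 and -0.35, lie farthest to the left.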

How the data were processed

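RNA of the parietal bone was measured by RNA-seq in 8 libraries. The kit, per the labels' protocols, was TruSeq Stranded mRNA on 1 µg of RNA, read as 101 bp pairs on a NovaSeq. The authors deposited raw counts per gene symbol, all 0 for 5009 of the 27133 genes. The submitters' processing notes name STAR 2.7.10b, featureCounts 1.6.3 and the builds GRCm38 and GRCm39. Annotation, strand setting and use of multi-mapping reads were not given in the sources used here. Between 82.8% and 84.7% of counts from 1 to 10 were even, as when both mates are counted, so the totals overstate the precision.

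The counts were tested in edgeR 4.0.16 (R 4.3.3): filterByExpr, TMM factors and the robust quasi-likelihood test, with p-values adjusted by Benjamini and Hochberg's method over 17028 genes at a threshold of 0.05. Fold changes are log2, anti-CSF1R over isotype. Alternatives were DESeq2 1.42.0, limma-voom (limma 3.58.1), RLE factors, unscaled library size, no filter, 1 CPM in 4 libraries, halved counts, leaving out each library, isotype 2 and 5 only, and an offset fitted per library by splines with 5 degrees of freedom on the GC content and on the log2 length of each gene's longest transcript in GENCODE M21, known for 95.2% of tested genes. The scripts were tested on simulated data.

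The members and lists were chosen with earlier results of these data known. Every member is accounted for. Values in every library are given for members past the threshold, tested members whose groups do not overlap, the 5 ligands and 8 receptors with the highest mean CPM, and Tnf, Tnfrsf1a and Tnfrsf1b. They are also given, chosen after their values were seen, for the counts of the untested ligands, Tnfsf14, Tnfrsf17 and Edar. Of the signalling list, up to 6 genes without overlap and with the smallest p are named; Birc2 and Adam10 were named after their values were seen. RefSeq promoters were found for 33 of the 43 members, and the motifs were chosen with the sequences in view.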

Additional observations from a re-analysis of the deposited data

Results flagged for a closer look

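In 3 of 82 groups of 4 libraries examined (35 members and 6 signalling genes, 2 groups each), a single library stood far from the other 3 by Dixon's test at its 95% critical value, where chance flags about 1 in 20 groups, here 4.10. Eda2r stood at 1.55 CPM in anti-CSF1R 10, above the 1.33 to 1.36 CPM of the other anti-CSF1R libraries. Tnfrsf26 stood at 2.75 CPM in isotype 3, below the 4.27 to 4.56 CPM of the other isotype libraries. Cd27 stood at 0.429 CPM in isotype 4, above the 0.198 to 0.229 CPM of the other isotype libraries.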

How the results depend on the processing

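All 10 planned kinds of alternative were run, 17 fits in all. The number of members called, 0 on all libraries, was 2 with isotype 2 and 5 only, 2 with the GC and length offset and 3 with DESeq2, all lower, and 0 to 1 without each library in turn (1 without isotype 5, Tnfrsf9). In the other 6 fits on all 8 libraries it was 0. The number of genes called in the whole table, 144, was 536, 459 and 777 in those 3 fits and 0 to 260 without each library in turn: 0 without anti-CSF1R 7 or 8 (1903 and 1597 at an unadjusted p under 0.05), 4 without anti-CSF1R 9, 14 without anti-CSF1R 10, 35 without isotype 4, 260 without isotype 2 and 234 without isotype 5. Signalling genes called, 0 on all libraries, were 2 with isotype 2 and 5 only and 2 with DESeq2, and 0 without each library in turn. With library size alone the median log2 fold change of all genes moved to 0.19, against 0.03 with TMM factors. The median of the members, -0.18, ran from -0.23 to 0.03 over all fits.

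Signs turned in members with small changes. With isotype 2 and 5 only the log2 fold change became 0.01 for Tnfrsf1a, 0.13 for Tnfsf13os, 0.27 for Ltb, 0.17 for Tnfsf13, 0.09 for Ltbr, 0.04 for Tnfsf12, -0.09 for Tnfrsf10b, 0.27 for Eda and 0.12 for Cd40. With the offset it became 0.27 for Tnfsf13, 0.08 for Tnfrsf12a, -0.01 for Tnfrsf10b, 0.09 for Tnfsf12, 0.12 for Tnfsf13os, -0.53 for Tnfsf13b, 0.09 for Tnfrsf21, 0.01 for Ltbr, 0.14 for Tnfrsf25 and 0.01 for Tnfrsf8. With library size alone it became 0.08 for Tnfrsf21, 0.11 for Tnfsf13, 0.07 for Tnfrsf26 and 0.17 for Eda. It became -0.02 for Tnfrsf10b with DESeq2 and with RLE factors, and 0.02 for Eda with limma-voom. Without each library in turn it ran from -0.54 to 0.08 for Tnfrsf8, -0.14 to 0.16 for Tnfrsf4, -0.21 to 0.03 for Tnfrsf26, -0.02 to 0.18 for Tnfsf13b, -0.20 to 0.13 for Tnfsf13, -0.07 to 0.13 for Tnfrsf10b, -0.17 to 0.07 for Tnfrsf21 and -0.12 to 0.16 for Eda. None of these passed the threshold in any fit, and the cause was not tested. Tnfrsf9, Tnfsf8 and Tnfrsf1b were lower in every fit that tested them. No paired analysis was possible because the groups share no replicate numbers. Members under about 1 CPM rest on few counts, where only large differences could be seen.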
